A study of Mus musculus with 2 samples.

Results

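Macrophages are the resident phagocytes of skeletal muscle, and 10 genes that mark them were followed in the gastrocnemius, the main calf muscle, of newborn mice. The genes were given as a list of symbols, namely the general macrophage genes Csf1r, Adgre1, Cd68 and Mrc1, the complement genes C1qa, C1qb and C1qc, and the markers of resident tissue macrophages Lyve1, Timd4 and Folr2. Each symbol matched 1 gene, so that 10 of the 55536 Ensembl genes in the tables were members. The series held 1 group of 2 total RNA-seq libraries from female B6CASTF1/J mice, first-generation hybrids of C57BL/6J and CAST/EiJ, aged 4 days. The labels name no treatment or further allele, and both libraries carry the same donor record, so litter and parentage cannot be told apart. Each library was made from 300 ng of RNA with ribosomal RNA reduced and ERCC spike-ins added. With 1 group the design holds no contrast of conditions, and the questions were how high each macrophage gene stood and how far the libraries differed.

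Csf1r encodes the receptor for the growth factors CSF1 and IL-34, on which most tissue macrophages depend for survival. Adgre1 encodes F4/80, an adhesion receptor used to stain mouse macrophages, Cd68 a heavily glycosylated protein of their lysosomes, and Mrc1 the mannose receptor CD206, which takes up glycoproteins and collagen fragments. C1q is the recognition protein of the classical complement pathway. It is built from A, B and C chains, each with a collagen-like stalk and a globular head, and macrophages are its main source in most tissues. Lyve1 encodes a hyaluronan receptor of perivascular macrophages and of lymphatic endothelium, Timd4 a receptor for phosphatidylserine on dying cells, and Folr2 the beta folate receptor. The last 3 genes together mark long-lived resident macrophages in many organs.

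Muscle genes were high, as the tissue label has it, and the libraries were deep. Total expected counts (reads assigned by estimation, not always whole) were 30961087 in replicate 1 and 36246031 in replicate 2, and the 5 muscle markers Acta1, Ckm, Myh8, Mylpf and Tnnt3 had mean levels of 3622 to 12814 TPM (a level scaled for transcript length and for depth). The libraries stood apart in genes of other tissues. Of all genes averaging 10 counts or more, 49.7% were higher in replicate 2. There all 5 red cell genes, 7 of 7 neutrophil genes and 6 of 6 bone genes were lower. Of the liver genes 6 of 6 were higher, with Alb at 254 and 2941 counts in replicates 1 and 2. The values of the 10 genes are therefore given for each library, and those of other genes mostly as mean ± SD (n = 2).

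The C1q chains are encoded by neighbouring genes on chromosome 4 of build mm10, all on the minus strand. C1qb lies at 136880129 to 136886187, C1qc at 136889804 to 136893065 and C1qa at 136895917 to 136898803. The locus spans 18.7 kb, with gaps of 3.62 kb and 2.85 kb between the genes and no other annotated gene in it. Each leading transcript has 3 exons. The collagen-like stalk can be read from the coding sequences, because collagen needs glycine, whose codons start with GG, at regular places in each repeat of 3 residues. The longest unbroken run of such repeats held 16 in C1qa, 29 in C1qb and 16 in C1qc. A run ends where the pattern first breaks, so its length need not be that of the stalk. Over the whole coding sequences, codons starting with GG numbered 39 in C1qa, 40 in C1qb and 39 in C1qc. The longest runs are shown 5′ to 3′ from the GENCODE M21 transcripts, with the glycine codons in capitals. They belong to the part the chains share by design.
C1qa: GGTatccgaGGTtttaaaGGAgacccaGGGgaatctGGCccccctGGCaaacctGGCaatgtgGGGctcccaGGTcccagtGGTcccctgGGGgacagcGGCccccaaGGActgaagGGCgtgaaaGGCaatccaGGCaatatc
C1qb: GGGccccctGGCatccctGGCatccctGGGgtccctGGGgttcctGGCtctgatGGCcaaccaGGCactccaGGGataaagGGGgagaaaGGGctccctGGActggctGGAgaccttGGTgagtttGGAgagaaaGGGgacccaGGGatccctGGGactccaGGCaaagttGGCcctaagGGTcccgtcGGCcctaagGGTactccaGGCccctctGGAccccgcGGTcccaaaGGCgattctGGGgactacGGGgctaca
C1qc: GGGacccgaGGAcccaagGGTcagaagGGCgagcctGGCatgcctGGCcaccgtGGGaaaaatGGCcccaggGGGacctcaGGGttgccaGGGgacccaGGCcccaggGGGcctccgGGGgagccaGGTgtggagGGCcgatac
The runs cover coding bases 184 to 327 of 738 in C1qa, 91 to 351 of 762 in C1qb and 202 to 345 of 741 in C1qc, stop codon included. Despite the shared plan, the coding sequences were 61.7% (C1qa and C1qb), 63.1% (C1qa and C1qc) and 62.4% (C1qb and C1qc) identical over their aligned bases. The longest stretch of identical bases between any pair was 15, in C1qb and C1qc. The deposited standard deviation of the count estimate was 0 for all 3 genes, as for the other 7 members, in both libraries.

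The C1q chain genes stood at nearly equal levels. C1qb had 16.1 TPM in replicate 1 and 15.2 TPM in replicate 2, a mean of 15.7 ± 0.651 TPM (SD, n = 2). C1qa had 15.3 and 14.0 TPM, a mean of 14.6 ± 0.898 TPM. C1qc had 13.9 and 12.9 TPM, a mean of 13.4 ± 0.707 TPM. All 3 were slightly higher in replicate 1, and the ranges of C1qb and C1qa overlapped while C1qc lay just below both. Counts behind these levels were 447 and 478 for C1qb, 402 and 418 for C1qa, and 430 and 452 for C1qc in replicates 1 and 2.

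Within a library the chains kept their proportions. C1qb held 35.6% and 36.1% of the summed C1q TPM in replicates 1 and 2, C1qa 33.7% and 33.2%, and C1qc 30.7% and 30.7%. The count ratio of C1qb to C1qa in replicate 2 was 1.03 times that in replicate 1, with a 95% counting interval of 0.848 to 1.25, and that of C1qb to C1qc 1.02 times (0.842 to 1.23). No difference in chain proportions between the libraries was therefore detectable at this depth. C1qb led under both deposited quantifications, but the order of the other chains turned. In the separate transcript tables the authors deposited, called the other quantification here, C1qc held 33.9% and C1qa 29.8%. Which of C1qa and C1qc stands higher is thus not settled by these files, while the highest chain was at most 1.25-fold above the lowest in each library and quantification.

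**Figure D1:**
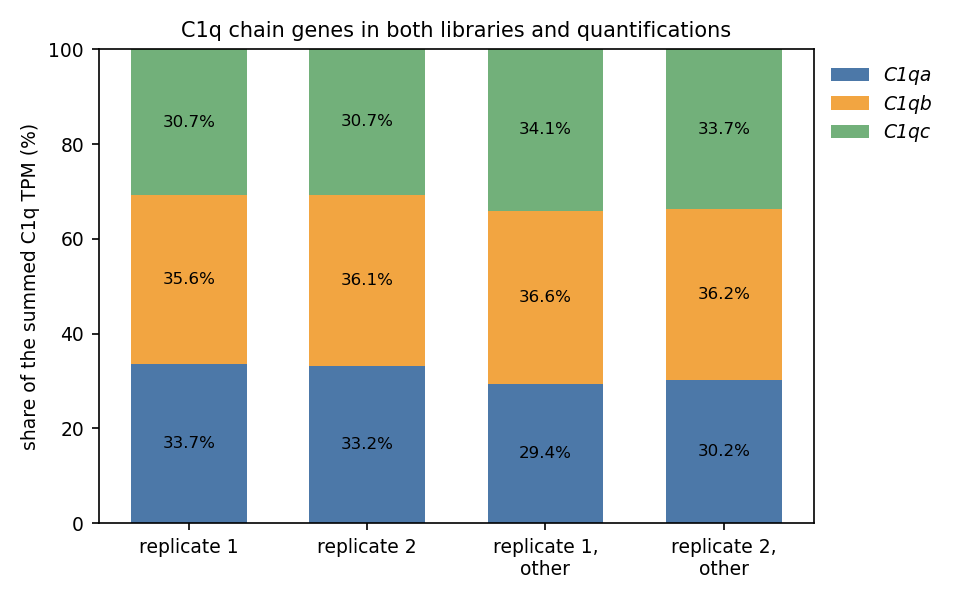
Stacked bars give each chain gene's share of the summed C1q TPM (y axis, percent) in replicates 1 and 2, from the gene tables (left pair) and the other quantification (right pair). The shares lie between 29.4% and 36.6%, and C1qb is the largest in each bar.

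Of the general macrophage genes, Mrc1 and Csf1r stood well above Cd68 and Adgre1. Mrc1 had 19.4 and 21.7 TPM in replicates 1 and 2 (20.6 ± 1.65 TPM, SD, n = 2), the highest of the 10 genes, and lay above 74.3% of the 13336 genes that reached 1 TPM in each library. Csf1r had 18.0 and 17.05 TPM (17.5 ± 0.679 TPM). The ranges of these genes did not overlap here, but they touched in the other quantification, where Mrc1 had 31.8 and 34.7 TPM and Csf1r 31.8 and 29.2 TPM. Cd68 was much lower, with 5.21 and 5.41 TPM (5.31 ± 0.141 TPM), on 165 and 179 counts. Adgre1 had 4.74 and 3.78 TPM (4.26 ± 0.679 TPM), on 302 and 377 counts. Cd68 stood above Adgre1 in each library without overlap, by 1.10-fold in replicate 1 and 1.43-fold in replicate 2.

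The Adgre1 level went opposite ways by TPM and by counts. Its counts were higher in replicate 2 while its TPM was lower there. In replicate 1, a transcript of 402 bases, Adgre1-203, was given 9.6 counts, which at that length made 1.13 TPM or 23.8% of the gene. In replicate 2 all 377 counts went to the long transcript Adgre1-202 (3238 bases, 22 exons). The TPM of Adgre1-202 alone was 3.01 and 3.78 in replicates 1 and 2, so this form was higher in replicate 2, as the counts were. Another long coding form, Adgre1-201 (3124 bases, 23 exons), went the other way, with 0.30 TPM in replicate 1 and 0 in replicate 2. The other quantification gave Adgre1-203 nothing in either library and put the gene at 5.34 and 5.96 TPM.

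Mrc1, Csf1r and Cd68 were each led by 1 coding transcript. Mrc1-201, a transcript of 30 exons on chromosome 2 (14229392 to 14332057), took 98.4% ± 0.141 of the Mrc1 TPM. Csf1r-201, with 22 exons, took 74.9% and 70.8% of the Csf1r TPM in replicates 1 and 2. The rest of Csf1r went to Csf1r-202 (12.6% and 12.2%) and to the 416-base Csf1r-205 (11.1% and 16.55%), while the other quantification placed 12.7% and 10.4% on Csf1r-203 instead. Cd68-201 took 100% and 85.6% of the Cd68 TPM, with the remainder in replicate 2 on a noncoding form. The minor forms of these genes therefore differ between libraries or quantifications, while the leading ones do not.

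**Figure D2:**
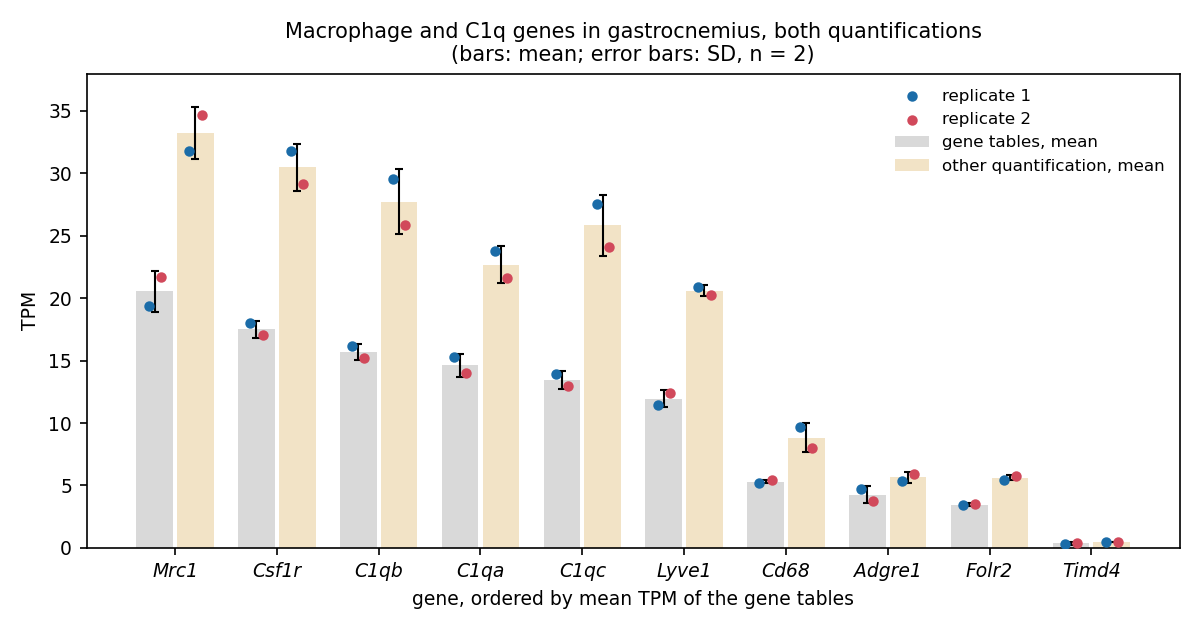
Bars give the mean TPM (y axis) of each gene (x axis) in the gene tables and in the other quantification, points the replicates, and error bars the SD (n = 2). Mrc1 is highest, at 20.6 TPM in the gene tables, Lyve1 and the C1q genes lie between 11.9 and 15.7 TPM, and Timd4 is near 0 on this axis, at 0.350 TPM.

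The resident markers spread over a wide range, with Lyve1 high, Folr2 low and Timd4 barely present. Lyve1 (chromosome 7, 110850607 to 110863239) had 11.5 and 12.4 TPM in replicates 1 and 2 (11.9 ± 0.679 TPM, SD, n = 2), on 718 and 845 counts. Folr2 (chromosome 7, 101839988 to 101857194) had 3.41 and 3.53 TPM (3.47 ± 0.0849 TPM), on 86 and 105 counts. Timd4 (chromosome 11, 46810800 to 46844332) had 0.290 and 0.410 TPM (0.350 ± 0.0849 TPM). Lyve1 thus lay just under the C1q genes, Folr2 just under Adgre1, and Timd4 was the 1 member under 1 TPM. Of the 10 genes, 9 were detected, against 24.0% of all genes and 54.8% of protein-coding genes.

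Timd4 was nevertheless counted in both libraries. It had 17 counts in replicate 1, with an exact Poisson 95% interval of 9.90 to 27.2, and 27 counts in replicate 2 (17.8 to 39.3). These intervals cover counting error only and overlap. Its level was 0.0253 times that of Lyve1 in replicate 1 and 0.0330 times in replicate 2, and 0.0850 and 0.116 times that of Folr2. The other genes of its family that were looked up, Havcr1, Havcr2 and Timd2, were also under 1 TPM in both libraries. The resident markers together took 14.1% and 15.4% of the summed TPM of the 10 genes, the C1q genes 42.0% and 39.6%, and the general genes 43.9% and 45.05%.

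Lyve1 included a form with retained intron. Lyve1-201, the coding transcript of 6 exons, took 73.4% and 68.8% of the Lyve1 TPM in replicates 1 and 2, and the 802-base Lyve1-202, annotated as a retained intron, took the remaining 26.6% and 31.2%. The other quantification gave Lyve1-202 less, 18.5% and 17.9%. The libraries were made from total RNA, which can include unspliced transcripts. The coding form alone had 8.41 and 8.55 TPM, which leaves Lyve1 above Cd68 in both libraries.

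For Folr2 the deposited quantifications disagreed on where transcription starts. In the gene tables' own quantification Folr2-201 took 83.3% and 92.3% of the Folr2 TPM in replicates 1 and 2, Folr2-202 the rest, and Folr2-203 none. In the other quantification Folr2-203 took 89.8% and 100% and Folr2-201 none. Folr2-201 ends at 101845317 on the minus strand of chromosome 7 and Folr2-203 at 101857194, so that these are the starts of the transcripts. The RefSeq promoter table (GRCm38.p6) holds a start for each, and the bases before both are shown 5′ to 3′ on the minus strand, because the quantifications place the reads at different ones. Capitals mark TGCTGA, a core that Maf binds.
Folr2 inner start, chr7:101845332-101845581: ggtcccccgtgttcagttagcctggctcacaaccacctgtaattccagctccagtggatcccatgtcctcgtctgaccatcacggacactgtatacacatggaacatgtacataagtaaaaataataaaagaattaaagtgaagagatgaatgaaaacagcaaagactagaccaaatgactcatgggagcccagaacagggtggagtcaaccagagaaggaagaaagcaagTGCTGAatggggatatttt
Folr2 outer start, chr7:101857195-101857440: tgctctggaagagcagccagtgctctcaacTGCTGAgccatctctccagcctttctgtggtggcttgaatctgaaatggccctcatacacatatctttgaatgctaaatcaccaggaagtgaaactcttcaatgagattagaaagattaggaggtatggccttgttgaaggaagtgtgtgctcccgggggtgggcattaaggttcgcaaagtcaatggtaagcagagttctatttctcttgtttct
Each of the starts held 1 match to TGCTGA, 19 bases before the inner start and 220 bases before the outer start. The gene's counts were close under both quantifications, at 86 and 105 against 83 and 109, so the level of Folr2 does not turn on this choice. Whether each form was truly present was not tested.

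**Figure D3:**
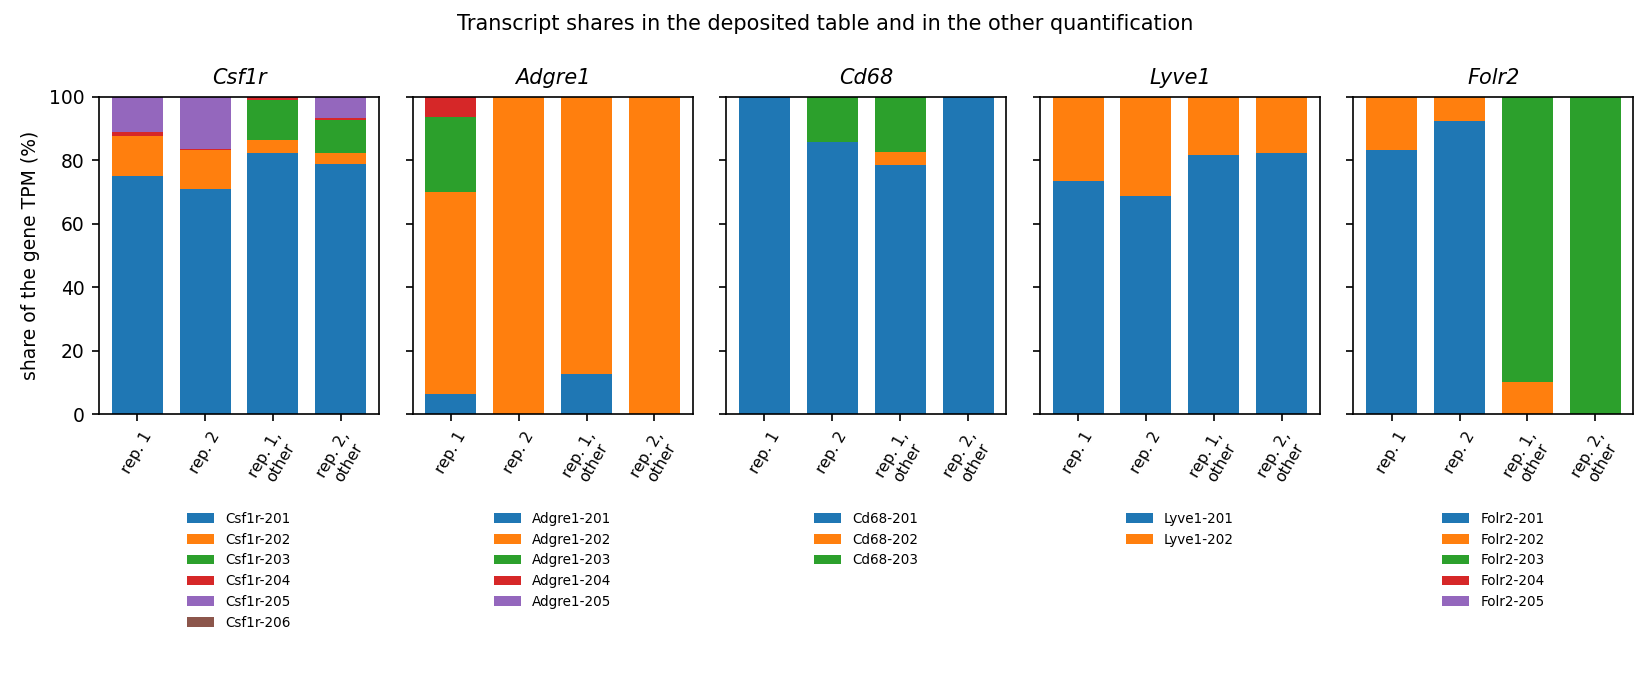
Stacked bars give each transcript's share of the gene's TPM (y axis, percent) for Csf1r, Adgre1, Cd68, Lyve1 and Folr2, in replicates 1 and 2 of the gene tables' quantification and of the other one. Folr2-201 leads in the first and Folr2-203 in the second, and Adgre1-203 appears only in replicate 1 of the first.

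Promoters of 6 of the 10 genes were taken from the RefSeq table, in 7 windows. None was taken for Csf1r, Adgre1, C1qa or Lyve1, which does not show that the table lacks a Csf1r promoter. The 250 bases before each start were searched on both strands for the cores of sites of myeloid factors. GAGGAA, the core bound by PU.1, the product of Spi1, was in the windows of C1qb, C1qc, Cd68 and Mrc1, so 4 of 7, and in 23.3% of all 32817 windows of that length. TGCTGA was in 4 of 7, those of C1qb, Timd4 and both starts of Folr2, and in 16.1% of all windows. TTGCNNAA, the core for C/EBP factors, was in 1 of 7 (Cd68) and 9.6% of all, while the interferon-stimulated response element and CACGTG (MITF and TFE factors) were in 0 of 7 and in 3.0% and 6.0% of all. No match overlapped another. The C1q windows are shown 5′ to 3′ on the minus strand, since these neighbouring genes stood at like levels. Capitals mark GAGGAA, its reverse complement TTCCTC and TGCTGA. Bases inside annotated exons are left out.
C1qb, chr4:136886201-136886450: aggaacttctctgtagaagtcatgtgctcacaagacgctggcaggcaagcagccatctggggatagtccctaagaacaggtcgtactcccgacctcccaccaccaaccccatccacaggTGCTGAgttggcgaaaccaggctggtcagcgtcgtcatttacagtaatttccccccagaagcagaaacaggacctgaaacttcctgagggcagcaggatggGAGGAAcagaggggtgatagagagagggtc
C1qc, chr4:136893066-136893164: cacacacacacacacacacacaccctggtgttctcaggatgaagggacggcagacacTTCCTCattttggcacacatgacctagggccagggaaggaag
GAGGAA lies 30 bases before the C1qb start, and its reverse complement 193 bases before the C1qc start of RefSeq, which lies 151 bases inside the GENCODE transcript. A match to these letters describes the window and does not show binding.

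Between the libraries the macrophage genes differed little. The log2 ratio of replicate 2 over replicate 1 was taken from counts scaled by trimmed mean of M values. Over the 10 genes its median was -0.0004, against -0.0013 over the 17581 genes that averaged 10 counts or more. Of the 8 members that averaged 100 counts or more, 0 were over 2-fold apart, where 0.71% of the 12256 genes at that depth were. Of the 10 that averaged 10 counts or more, again 0 were, where 3.75% of the genes were. Past 1.5-fold there were also 0 members at either depth, against 2.45% and 10.5% of the genes. By direction 5 of 10 were higher in replicate 2, near the 49.7% of all genes. The ratios of 7 of the 10 lay within the middle 50% of all genes, which ran from -0.18 to 0.13. With 1 library on each side these are sizes with no test, and a difference in cell number cannot be told apart from a difference in RNA per cell.

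Mrc1 and Csf1r lay on opposite sides of the typical gene by more than counting error, also when the spike-ins set the scale. Mrc1 had 2835 counts in replicate 1 and 3599 in replicate 2, a log2 ratio of 0.17 with an exact 95% counting interval of 0.10 to 0.24. Csf1r had 1748 and 1783 counts, a log2 ratio of -0.15 with an interval of -0.24 to -0.05. On the scale set by the spike-ins, Mrc1 was at 0.03 (-0.05 to 0.10), which includes 0, and Csf1r at -0.29 (-0.39 to -0.19). That scale put the median of all genes at -0.14, below the Mrc1 interval and above that of Csf1r. On that scale the intervals of C1qa (-0.46 to -0.06), C1qb (-0.41 to -0.03) and C1qc (-0.44 to -0.05) also left out 0. All of these C1q intervals included the median of all genes, so they set no C1q gene apart from the typical gene. Without any scaling between libraries, the count ratio of Mrc1 to Csf1r in replicate 2 was 1.24 times that in replicate 1 (1.15 to 1.35). That of Lyve1 to Csf1r was 1.15 times (1.02 to 1.30) and that of Adgre1 to Csf1r 1.22 times (1.03 to 1.45). These intervals hold no variation between animals. The biological coefficient of variation over all genes, estimated from these same libraries, was 0.127. It takes in their differences in genes of other tissues. Because both carry the same donor record, it cannot be read as variation between animals alone. With scaling by trimmed mean of M values, the intervals of the other 8 genes included 0.

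By sign, Csf1r and the C1q genes were lower in replicate 2 and Mrc1 and Timd4 higher under every scaling and quantification tried. The C1q log2 ratios were -0.12 for C1qa, -0.10 for C1qc and -0.08 for C1qb. Timd4 was at 0.45, with a wide interval of -0.44 to 1.46. Lyve1 (0.06) and Folr2 (0.11) turned to -0.08 and -0.03 when the spike-ins set the scale, a choice that put the median of all genes lower by 0.14, at -0.14. On that scale 3 of the 10 were higher in replicate 2, against 24.2% of all genes. Cd68 (-0.06) was at 0.01 in the other quantification and at 0.05 by TPM, and Adgre1 (0.14) was at -0.33 by TPM.

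**Figure D4:**
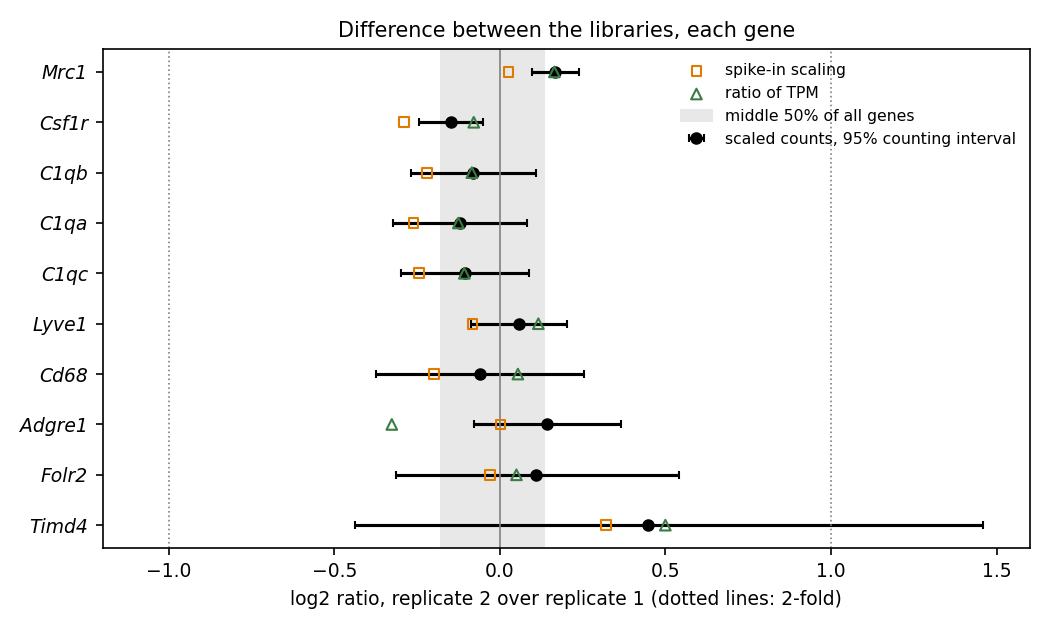
Black points give the log2 ratio of replicate 2 over replicate 1 (x axis) of each gene (y axis) from scaled counts, with exact 95% counting intervals as bars; squares give spike-in scaling, triangles the ratio of TPM, and the band the middle 50% of all genes. No point reaches the dotted 2-fold lines, and the intervals of Mrc1 and Csf1r alone leave out 0.

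The ligands of the CSF1 receptor and the transcription factors of macrophages that were looked up were all expressed. Csf1, the main ligand gene, had 11.7 and 10.2 TPM in replicates 1 and 2 (10.9 ± 1.03 TPM, SD, n = 2), and Il34, the gene of the other ligand, 2.71 and 3.04 TPM (2.88 ± 0.233 TPM). Csf1 thus stood below its receptor gene in each library and above Il34. All 7 genes of this list were detected, led by Maf (19.5 ± 0.141 TPM), Csf1 and Cebpa (8.88 ± 1.84 TPM), the gene of a C/EBP factor. Spi1, the gene of the myeloid master regulator PU.1, had 2.88 ± 0.474 TPM. The median log2 ratio of the list was -0.047, with 1 gene, Maf, higher (and lower on the spike-in scale) and 6 lower in replicate 2.

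Other macrophage genes were mostly lower than the 10, with a median of mean TPM of 2.42 against 12.7, and went both ways between the libraries. Of 17, 15 were detected, led by the lysozyme gene Lyz2 (25.4 ± 5.24 TPM), the signalling adaptor gene Tyrobp (13.4 ± 0.742 TPM) and the Fc receptor gamma chain gene Fcer1g (11.3 ± 0.318 TPM). Their median log2 ratio was -0.044, with 6 higher and 11 lower in replicate 2 (3 and 14 on the spike-in scale), and none was over 2-fold apart, against 3.75% of all genes. In 4 of them the counting interval left out 0. Ptprc, the gene of the leukocyte antigen CD45, was lower in replicate 2 at -0.61 (-0.85 to -0.38), Lyz2 at -0.42 (-0.55 to -0.28) and the uptake receptor gene Mertk at -0.36 (-0.62 to -0.11). The fractalkine receptor gene Cx3cr1 was higher there, with 156 and 252 counts, at 0.51 (0.22 to 0.81). Of 7 further genes known from resident macrophages, 6 were detected, with a median of 0.038 (log2), -0.10 on the spike-in scale, and none over 2-fold apart. They were led by Selenop (97.1 ± 1.02 TPM), the gene of a secreted selenium carrier, Gas6 (46.1 ± 1.06 TPM), a ligand that bridges dying cells to phagocytes, and the scavenger receptor gene Stab1 (39.7 ± 1.07 TPM), all of which other cells express too. The haemoglobin scavenger receptor gene Cd163 had 5.05 ± 0.233 TPM.

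Genes of recently recruited monocytes and of antigen presentation went another way. Of the 8 looked up, 7 averaged 10 counts or more. All 7 were lower in replicate 2, where 49.7% of all genes were higher. Their median was -0.83 (log2), and -0.70 in the other quantification. The invariant chain gene Cd74 had 190 and 74 counts in replicates 1 and 2, H2-Aa 69 and 26, Plac8 76 and 57, and Ly6c2 28.6 and 14.3. Cd74, H2-Aa and Ly6c2 made 3 of 7 over 2-fold lower, against 2.72% of all genes at that depth. Neutrophil genes and the lymphocyte gene Cd79a (46 and 5 counts) were also lower in replicate 2, and the part of other cells in these counts was not tested. The MHC genes are polymorphic between the parental strains, and reads of both were counted on the C57BL/6J reference. Ccr2, the receptor gene of recruited monocytes, had 67.9 and 46 counts and was under 1 TPM in both libraries. Its level, 0.605 ± 0.177 TPM, was above that of Timd4 and below those of the other 9 members.

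The lists of other cells that share member genes were measured beside them. Lyve1 also marks lymphatic vessels, whose genes Pdpn (15.0 ± 1.12 TPM), Prox1 (4.91 ± 0.262 TPM), Ccl21a (4.33 ± 1.44 TPM) and Flt4 (2.77 ± 0.191 TPM) were detected, 4 of the list of 5 in all. Their summed TPM was 28.3 in replicate 1 and 27.3 in replicate 2, with a median log2 ratio of -0.09. Pdpn, Prox1 and Flt4 had intervals that included 0, whereas Ccl21a was lower in replicate 2 at -0.68 (-1.12 to -0.27), as was Mmrn1 at -0.76 (-1.21 to -0.35). The part of lymphatic cells in the Lyve1 level was not tested. Of 9 genes of osteoclasts, the bone-resorbing cells that also need CSF1, 5 averaged 10 counts or more. Among these, 1 was higher and 4 were lower in replicate 2, where 49.7% of all genes were higher. Acp5 (190 and 53 counts in replicates 1 and 2) and Mmp9 (429 and 35 counts), which neutrophils also express, were over 2-fold lower in replicate 2, and Ctsk (1166 and 850 counts) was lower at -0.63. Calcr was higher there (149 and 199 counts), with an interval that included 0. Tnfrsf11a, at 116 and 122 counts, had a log2 ratio of -0.10 after scaling, also with an interval that included 0. Dcstamp, needed for their fusion, had 6 and 0 counts, Oscar 4 and 6, and Ocstamp 3 and 5. The summed TPM of the 9 osteoclast genes was 42.9 and 23.5, of which Ctsk alone made 29.5 and 18.9. The part of osteoclasts in the Csf1r ratio of -0.15 was not tested.

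Liver macrophages, called Kupffer cells, carry Timd4 and Folr2. Of 4 genes that mark them, Marco had 25 and 63 counts in replicates 1 and 2, Cd5l 8 and 34, Clec4f 1 and 7, and Vsig4 0 and 4, so that only Marco and Cd5l averaged 10 counts or more. The summed TPM of these 4 genes was 0.66 and 1.82, against 10.2 and 104.5 for the 6 liver genes Alb, Ahsg, Afp, Apoa1, Fga and Apob, each over 2-fold higher in replicate 2. Marco and Cd5l were over 2-fold higher in replicate 2, at log2 ratios of 1.10 and 1.69 (0.97 and 1.57 on the spike-in scale). The part of Kupffer cells in the 17 and 27 counts of Timd4 was not tested. The 7 neutrophil genes summed to 72.5 and 13.6 TPM, with S100a9, S100a8, Ltf, Ngp, Mpo and Elane over 2-fold lower in replicate 2. The red cell genes Hbb-bs, Hba-a1, Slc4a1, Alas2 and Hemgn, all over 2-fold lower there, summed to 1233 and 229.7 TPM. The bone genes Spp1, Ibsp, Bglap, Mmp13, Col10a1 and Sp7, likewise over 2-fold lower, summed to 32.3 and 1.07 TPM. Of all genes averaging 10 counts or more, 2.72% were over 2-fold lower and 1.02% over 2-fold higher in replicate 2. Over the same libraries the summed TPM of the 10 macrophage genes was 107.8 and 106.5 (107.1 ± 0.969 TPM).

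**Figure D5:**
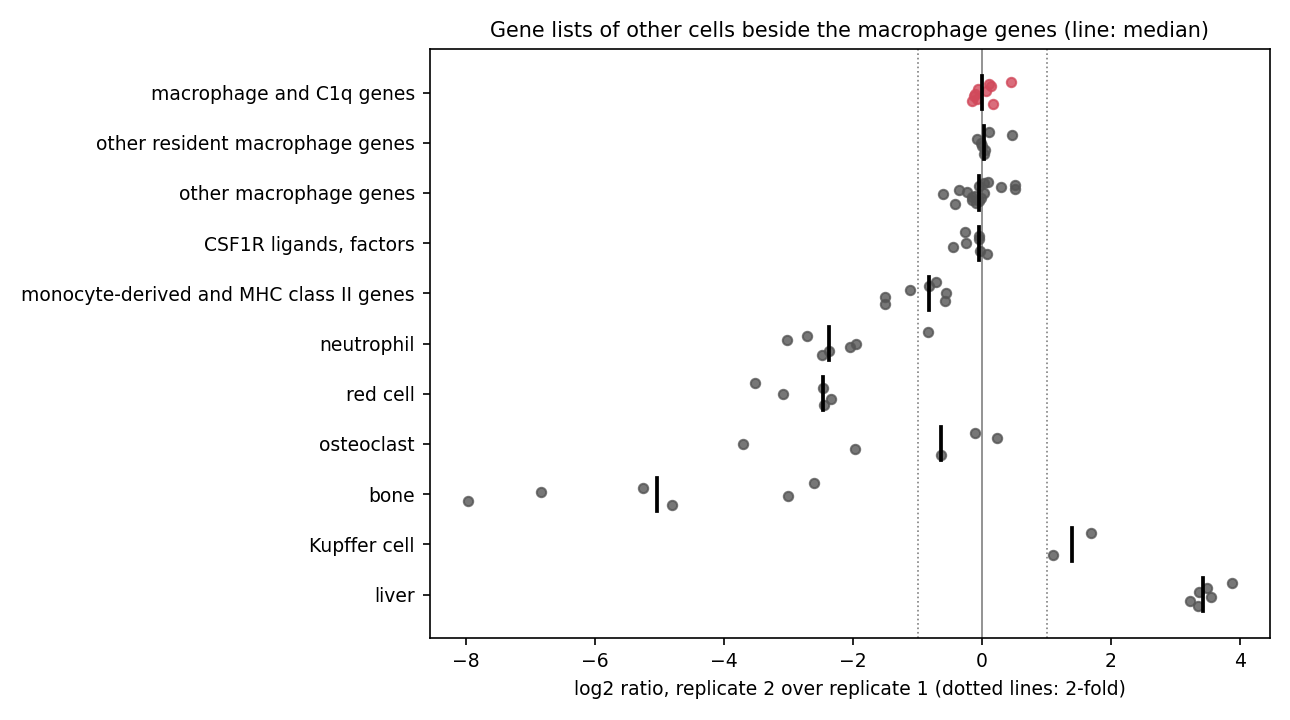
Points give the log2 ratio of replicate 2 over replicate 1 (x axis) of each gene averaging 10 counts or more in the lists named on the y axis, and lines the list medians. The macrophage and C1q genes centre on -0.0004, the monocyte and MHC class II genes on -0.83, and the liver genes on 3.42; bone genes at 0 counts in replicate 2 are placed by the prior count of 2 and are no measure of size.

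C1q acts with the proteases C1r and C1s, and their genes were expressed beside it. C1s1 had 17.3 and 15.9 TPM in replicates 1 and 2 (16.6 ± 1.02 TPM), close to the C1q chains, and C1ra 5.32 and 4.55 TPM (4.94 ± 0.544 TPM). Both were slightly lower in replicate 2, at log2 ratios of -0.10 and -0.22, as the C1q genes were. Further down the cascade, C2 had 2.42 ± 0.509 TPM and C4b 1.38 ± 0.212 TPM. The counts of C1s1, C1ra and C4b were not whole, so some of their reads were divided with other genes and their levels are uncertain. C3 had 499 and 1178 counts and Hc, the gene of C5, 6 and 48, and both were over 2-fold higher in replicate 2, against 1.02% of all genes. C3 was just past that size, at a log2 ratio of 1.06, and under it on the spike-in scale, at 0.92. Liver genes, as given above, were higher there too, and their part in the C3 and Hc counts was not tested. The genes of the terminal pathway Hc, C6, C7, C8a and C9 were all under 1 TPM, and C9 had 0 counts in both libraries.

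Inhibitors and receptors of C1q stood higher than most of the cascade. Of 12 regulators and receptors, 10 were detected, with a median of 0.048 (log2), -0.094 on the spike-in scale, and none over 2-fold apart. Calr (141.0 ± 1.46 TPM) and Lrp1 (71.2 ± 0.410 TPM), which act together in the uptake of C1q-coated cells and have many other roles, led the list, followed by the endothelial gene Cd93 (38.5 ± 2.45 TPM). Serping1, the gene of the C1 inhibitor, had 26.6 and 26.2 TPM in replicates 1 and 2, above each C1q chain gene in both. The receptor genes for the cleaved fragments of C3 and C5, C3ar1 and C5ar1, had 1.57 ± 0.361 TPM and 2.51 ± 0.191 TPM.

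The members other than the C1q chains were also set beside relatives. Mrc1 was below Mrc2 (31.7 ± 1.53 TPM), a collagen receptor gene of fibroblasts, and above Pla2r1 (1.38 ± 0.615 TPM). Csf1r stood between its kinase relatives Pdgfra (29.7 ± 2.50 TPM) and Pdgfrb (14.7 ± 0.764 TPM), which mark fibroblasts and mural cells, while Flt3, the receptor gene of dendritic precursors, had 7 and 0 counts. Adgre1 was below Adgre5 (29.6 ± 3.24 TPM), and Cd68 was below the general lysosomal genes Lamp1 (104.7 ± 2.77 TPM) and Lamp2 (43.4 ± 1.12 TPM). Lyve1 was below the other hyaluronan receptor gene Cd44 (29.7 ± 1.45 TPM) and above Stab2 (0.340 ± 0.212 TPM). Folr2 was above Folr1 (0.820 ± 0.537 TPM) in both libraries. In 5 of these families a relative of broader expression therefore exceeded the macrophage gene, and in the folate receptor family the member had the highest level of those looked up. Timd4 exceeded Havcr1 on average in the gene tables (0.350 against 0.230 TPM) but not in the other quantification (0.493 against 0.531 TPM).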

How the data were processed

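Genes are those of GENCODE M21 on mm10, as written in the notes the authors deposited beside the tables. The authors deposited expected counts (estimated reads) and TPM per gene and per transcript for each library, and separately estimated counts and TPM per transcript, summed here per gene as the other quantification. The other columns used, the lengths and the standard deviation of the count estimate, were copied as the authors deposited them. The aligner, the counting programs and their use of strand: not given in the sources used here. Both parental alleles were counted together on the C57BL/6J reference. Hmgxb3 overlaps Csf1r, and Gm10602 and Gm45319 overlap Folr2, on the opposite strand, and 7 of the 10 members overlap no gene.

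Symbols came from the transcript names for 55450 of 55536 genes and from GENCODE M21 for the rest. Expected counts were rounded and scaled with edgeR 4.0.16 (R 4.3.3, limma 3.58.1) by trimmed mean of M values, keeping genes that averaged 10 counts or more, and log2 ratios used a prior count of 2. The ratios were tested on simulated data. Intervals are exact 95% intervals of counting error (Poisson for a count, conditional binomial for a ratio, Fisher for a ratio of ratios), which treat reads as independent molecules although the labels name no molecular identifiers. No p-value was computed. The smallest exact two-sided permutation p for 2 values against 2 is 0.333. The labels number the animals apart but give both the same donor record, so the SD may be partly technical. DESeq2 1.42.0 size factors, library size, spike-ins, prior counts of 0.5 and 5, other thresholds, and the other quantification were alternatives. The rest was done in Python 3.11.15 (matplotlib 3.10.9, scipy 1.17.1, pandas 2.3.3, numpy 2.4.6).

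From the gene lists, 2 genes are not reported here. The members and the gene lists were chosen with earlier results of these data known. All 10 members were named, and up to 3 genes of highest TPM per list, those at 0 counts in both libraries, those over 2-fold apart in lists of other cells, Csf1, Il34, C1ra, C1s1 and the leading transcripts. Not all the highest genes of the lists of relatives are named. Other genes named were chosen after their values were seen. Genes of like pattern were not sought, since 2 libraries of 1 group give none.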

Additional observations from a re-analysis of the deposited data

How the results depend on the processing

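The summed TPM of the 10 genes was 107.1, and it was 181.2 in the other quantification and 117.9 after TPM were rescaled without spike-ins, tRNA entries and mitochondrial genes. The other quantification put the median detected gene 1.74 times as high, and the members between 1.33 and 1.92 times. The C1q share of the members was 40.8% by TPM and 17.1% by counts, and the resident marker share 14.7% and 11.7%, since counts are not per length. Within C1q, C1qa, C1qb and C1qc took 29.8%, 36.4% and 33.9% in the other quantification and 31.2%, 35.2% and 33.6% by counts, so C1qb led in each. Without 1 of the replicates, the summed TPM ranged from 106.5 to 107.8, the C1q share from 39.6% to 42.0%, and 9 members were detected each time. Over all genes 87 were over 2-fold apart at a mean of at least 100 counts, 659 at 10 counts, 14 at 1000 counts and 300 at 1.5-fold, and 0 members in each case. The median log2 ratio of the members ran from -0.14 (spike-ins) to 0.02 (other quantification). The ratio of TPM was an alternative chosen after seeing the data. No paired analysis was possible because the libraries form 1 group. Depth limits Timd4 most, at 17 and 27 counts, then Folr2 and Cd68.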

Other observations

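Genes of mast cells, long-lived immune cells of connective tissue, stood above most of the macrophage genes. The chymase gene Cma1 had 44.4 and 35.4 TPM in replicates 1 and 2 (39.9 ± 6.41 TPM, SD, n = 2), the carboxypeptidase gene Cpa3 29.2 and 25.4 TPM (27.3 ± 2.74 TPM) and the protease gene Mcpt4 21.5 and 19.6 TPM (20.5 ± 1.34 TPM). Cma1 and Cpa3 exceeded every one of the 10 macrophage and C1q genes in both libraries. All 4 mast cell genes looked up, with Kit (5.09 ± 0.806 TPM), were lower in replicate 2, with a median of -0.17 (log2) and none over 2-fold apart. Levels of transcripts do not rank numbers of cells.

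Genes used as microglia markers in brain were present in this muscle, and which cells expressed them was not tested. Tmem119 had 13.4 and 11.9 TPM in replicates 1 and 2 (12.6 ± 1.05 TPM), a mean between those of Lyve1 and C1qc, and P2ry12 1.49 and 1.54 TPM (1.51 ± 0.0354 TPM), while Sall1 had 24 and 21 counts and stayed under 1 TPM. Of the dendritic cell genes, Zbtb46, which endothelial cells also use, had 4.74 ± 0.134 TPM, and Flt3, Clec9a and Xcr1 had at most 7 counts in a library. The lymphocyte genes looked up were all under 1 TPM in at least 1 library, with Cd79a at 46 and 5 counts, over 2-fold lower in replicate 2, Ms4a1 at 16 and 8 and Cd3e at 7 and 4. Of the 5 blood vessel genes looked up, the highest were Cdh5 (64.8 ± 3.62 TPM), Pecam1 (47.4 ± 1.53 TPM) and Cldn5 (22.1 ± 1.19 TPM). These stood above all 10 macrophage genes by mean level, while the rest of that list stood below Mrc1.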
